A study of Mus musculus with 18 samples.

Results

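Mammary tumours that lacked Snai2, carried an ERBB2 transgene and came from mice without metastasis were compared between parous mice, which had been pregnant, and nulliparous mice, which had not. The labels of genotype, cohort and metastasis status put 3 parous and 3 nulliparous tumours in this comparison, 6 of the 18 arrays of the series. In both groups the Snai2 allele was that of B6;129S1-Snai2tm2Grid/J mice, a germline deletion, and the ErbB2 protooncogene came from the FVB/N transgenic line in which the mouse mammary tumour virus promoter drives it, so the mice had a mixed strain background. That promoter is active in the mammary epithelium and is itself regulated by hormones. Every tumour is labelled as luminal and ERBB2 positive. Age, the number of pregnancies and the time since the last litter are not given in the sources used here. Tumours from WT mice with the same transgene and with metastasis, 4 parous and 4 nulliparous, served for a comparison with intact Snai2. The remaining KO arrays came from mice with metastasis, 3 parous (2 samples after a near-identical pair was averaged) and 1 nulliparous. All arrays but that of the nulliparous KO mouse with metastasis are called biological replicates, so tests measure the spread between tumours. Each SE and p-value rests on a spread shared by all 17 samples. An SE can therefore be wider or narrower than the spread of the 6 compared tumours alone. The tissue is bulk tumour, in which fewer cells of a type and less RNA per cell cannot be told apart.

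Pregnancy drives the alveolar cells of the mammary gland to differentiate and to make milk proteins, under prolactin acting through Jak2 and Stat5 together with progesterone and glucocorticoids. After weaning the milk-producing cells die and the gland is rebuilt, but some cells formed in pregnancy persist in parous glands. In mice with a neu transgene under the mammary tumour virus promoter, luminal tumours often express milk genes with no pregnancy. Snai2 encodes a zinc finger repressor found mainly in the basal cells of the gland, and is best known as a factor of epithelial-mesenchymal transition.

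Milk genes had the highest median parity difference of the 27 lists examined with all 6 tumours, though skeletal muscle genes did without parous tumour 2. The sequences before the start sites of 3 milk genes are therefore shown, with the core of the Stat5 site, TTCNNNGAA, in capitals. This motif reads the same on both strands. Of 24 milk and secretory genes measured, 17 had a promoter window in the RefSeq table (build GRCm38.p6), and 4 of these, B4galt1, Csn1s1, Csn2 and Glycam1, held the motif within 250 bases before the start. Of all 27025 genes with a window 8.13% held the motif, which was in 7.02% of the 32851 windows. The stretches run from base 150 to base 6 before the start, 5′ to 3′ on the strand of the gene. They are those of Csn1s1 (chr5:87666058-87666202, plus strand), Csn2 (chr5:87699431-87699575, minus strand) and Wap (chr11:6638655-6638799, minus strand), upstream of their transcripts.
Csn1s1: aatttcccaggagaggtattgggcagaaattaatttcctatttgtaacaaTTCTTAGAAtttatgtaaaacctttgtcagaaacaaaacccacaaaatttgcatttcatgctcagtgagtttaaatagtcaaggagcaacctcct
Csn2: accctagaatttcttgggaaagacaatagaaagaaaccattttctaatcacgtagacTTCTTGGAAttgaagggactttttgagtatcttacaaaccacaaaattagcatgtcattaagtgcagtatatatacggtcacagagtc
Wap: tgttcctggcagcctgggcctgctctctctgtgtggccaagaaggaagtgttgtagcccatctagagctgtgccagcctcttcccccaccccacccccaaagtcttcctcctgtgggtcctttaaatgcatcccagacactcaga

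In the caseins Csn1s1 and Csn2 the motif began 100 and 93 bases before the start. The window of Wap, which encodes whey acidic protein, held no such run of letters.

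The values are log2 expression values from RMA, which corrects background and normalizes arrays by quantiles, so a difference of 1 is a 2-fold difference. Snai2, the deleted gene, was dim in all 6 tumours, at or under the 31.6 percentile of the genes on each array. Its log2 values were 6.74, 6.48 and 6.28 in parous tumours 1, 2 and 3, and 6.79, 6.61 and 6.36 in nulliparous tumours 1, 2 and 3. The groups overlapped (difference -0.09, SE 0.15, adjusted p = 1). In WT tumours, with the gene intact, Snai2 was about as dim, at 6.83 ± 0.19 (SD, n = 4) for the parous group and 6.86 ± 0.17 (SD, n = 4) for the nulliparous one, so its level here is no check of the deletion. The sources used here do not say whether the probes read the deleted exons. Erbb2, which encodes the receptor that drives these tumours, stood above the 99.1 percentile on each array, from 12.62 to 12.88 in parous and from 12.65 to 12.86 in nulliparous tumours (difference -0.02, SE 0.11, adjusted p = 1). The luminal keratins Krt8 and Krt18 and the epithelial adhesion gene Epcam stood at or above the 98.98 percentile in each tumour. Krt19, another luminal keratin, was dim, at 6.39 to 6.89 in 5 tumours, and at 9.69 in parous tumour 2. The basal keratin Krt5 was at 6.27 to 6.64 in 5 tumours and at 7.99 in parous tumour 2.

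No gene differed between parous and nulliparous KO tumours at the threshold. In a limma fit of 19938 genes, 0% of genes (0 genes) had a Benjamini-Hochberg adjusted p under 0.05, and the smallest adjusted p was 0.9995. At an unadjusted p under 0.05, 344 genes (1.73%) were higher and 311 (1.56%) lower in parous tumours, together 3.29% of genes. That is under the share of 0.05 expected if no gene differed. In 627 genes (3.14%) every parous tumour lay above every nulliparous tumour, and in 578 (2.90%) every parous tumour lay below. If the labels of parity were assigned at random, a share of 0.1 would be expected for both directions together. A difference of 1 or more on the log2 scale was found in 43 genes (0.216%) with higher values and 30 (0.150%) with lower values in parous tumours. The median SE was 0.157 over the 10254 brighter genes, those averaging 8 or higher in log2. At that SE the 95% interval of a difference reached 0.34 to either side. No single gene is therefore called changed, and the values below describe these tumours. All adjusted p-values are from limma.

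The tumours did not fall into the groups by parity. Over the 10254 genes whose mean log2 was 8 or more, the SD of the difference between 2 tumours was smallest for parous tumour 1 and nulliparous tumour 2, at 0.283, and next smallest for parous tumour 3 and nulliparous tumour 1, at 0.343. Within the nulliparous group it was 0.411 to 0.450, within the parous group 0.380 to 0.595, and between groups 0.283 to 0.623. Parous tumour 2 stood apart from all 5 others, at 0.547 to 0.623. Where leaving it out changed the median of a list, or a difference of over 0.2 given below, by more than 1.5 times, the value without it is given too.

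Milk and secretory genes were higher in parous tumours as a group. Of 24 members 23 had a difference above 0, with a median of 0.53, against a median of 0.01 over all 19938 genes, of which 52.6% lay above 0. In 7 members the groups did not overlap, with the parous tumours higher each time (3.14% of all genes), and 2 had an unadjusted p under 0.05, both higher (1.73% of all genes). No member passed the adjusted threshold. The mean log2 of the list was 10.46, 11.13 and 10.61 in parous tumours 1 to 3, and 10.41, 9.76 and 10.02 in nulliparous tumours 1 to 3. The groups did not overlap, but parous tumour 1 lay just above nulliparous tumour 1. The median was 0.24 without parous tumour 2 and 0.36 without nulliparous tumour 2, and 0.58 to 0.72 without any of the other 4. Parous tumour 2 was the highest of the 6 in 14 members and nulliparous tumour 2 the lowest in 11.

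Among the caseins, the main proteins of milk micelles, the differences were unequal. Csn3, kappa-casein, had log2 values of 13.34, 13.74 and 13.74 in parous and 13.44, 13.44 and 13.58 in nulliparous tumours, a difference of 0.12 (SE 0.12) with overlapping groups. Csn2, beta-casein, had 13.33, 13.80 and 13.84 against 13.43, 12.88 and 12.45 (difference 0.74, SE 0.97), and only nulliparous tumour 1 reached the parous range. Csn1s1 had 12.18, 13.58 and 13.17 against 12.93, 11.27 and 11.94 (difference 0.93, SE 1.15). The 3 nulliparous tumours thus had high values of these caseins too, and tumours of a group differed widely. Csn1s2a, an alpha-casein, ran from 13.17 to 13.75 in parous and from 12.54 to 13.05 in nulliparous tumours with no overlap (difference 0.66, SE 1.04). Csn1s2b had 9.59, 8.77 and 9.02 in parous tumours, above the 7.61, 6.95 and 8.62 of nulliparous tumours (difference 1.40, SE 0.90, adjusted p = 1).

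Genes of whey and milk fat are next. Wap had 9.17, 11.92 and 8.83 in parous and 8.28, 7.55 and 7.99 in nulliparous tumours, a difference of 2.03 (SE 0.77, adjusted p = 1), or 1.06 without parous tumour 2. Each parous tumour lay above each nulliparous one, and parous tumour 2 was far above the rest. Glycam1, a mucin-like protein of milk, was high in that tumour alone, at 9.22 against 6.23 to 6.56 in the other 5. Btn1a1, butyrophilin of the milk fat globule membrane, had 10.10, 10.36 and 11.72 against 9.95, 9.09 and 8.09 (difference 1.68, SE 1.42), with the highest value in parous tumour 3. Lao1, an amino acid oxidase of milk, had 9.27, 9.71 and 9.37 against 8.94, 7.87 and 8.06 (difference 1.16, SE 0.89). Fabp3, a fatty acid binding protein, had 7.45, 7.11 and 7.71 against 6.99, 6.97 and 6.92 (difference 0.46, SE 0.30). In Btn1a1, Lao1 and Fabp3 all parous tumours were above all nulliparous ones, by a small margin between the nearest tumours. Atp2b2, the pump that moves calcium into milk, did not overlap either (difference 0.22, SE 0.09). Ltf, the iron-binding lactoferrin, had 11.40, 12.98 and 11.20 in parous tumours and 11.93, 9.31 and 7.64 in nulliparous tumours (difference 2.24, SE 1.10), where nulliparous tumour 1 lay within the parous range. Only Folr1, a folate receptor, was lower on average in parous tumours (-0.19, SE 0.15), and the remaining members lay between 0.00 (Cidea, a lipid droplet protein) and 0.69 (Olah, the thioesterase of milk fatty acids, at -0.15 without parous tumour 2).

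**Figure D1:**
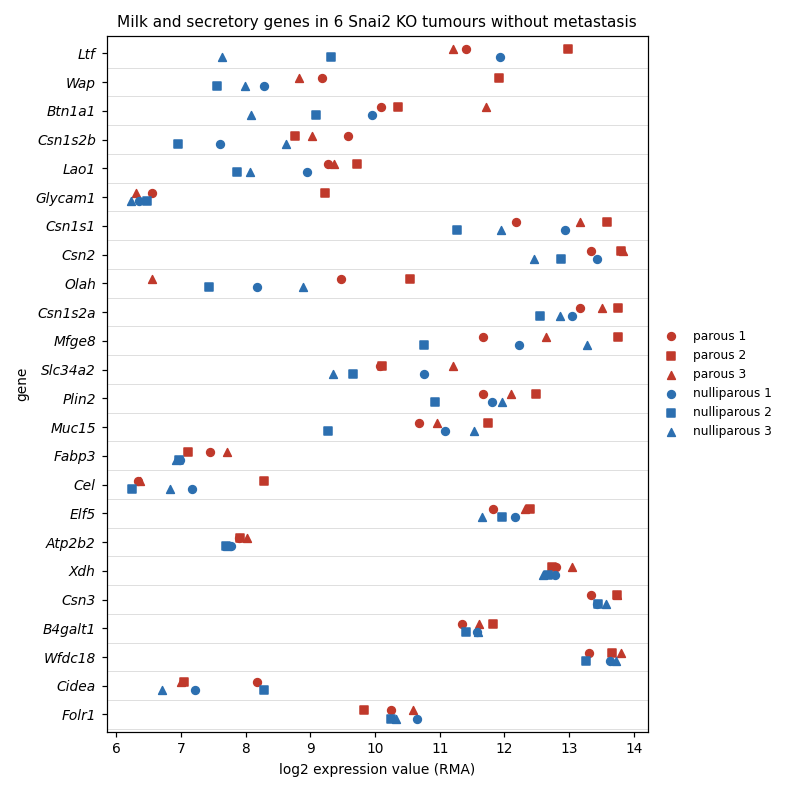
Log2 expression values (x axis) of the 24 milk and secretory genes (y axis) in the 6 KO tumours without metastasis, with 1 point per tumour, red for parous and blue for nulliparous, and genes in order of their difference. Red points lie to the right for Wap, Btn1a1, Csn1s2b, Lao1, Csn1s2a, Fabp3 and Atp2b2 with no overlap, and parous tumour 2 (red squares) is the highest in 14 genes.

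The hormone and prolactin list holds the receptors and signal proteins that act on these genes. Its 19 members had a median difference of 0.05 (0.09 without parous tumour 2), 13 of them above 0. Groups that did not overlap were found in 0 members (3.14% of all genes higher and 2.90% lower). An unadjusted p under 0.05 was also found in 0 (3.29% of all genes). In a list of 19 members these counts are near the shares over all genes. Jak2 and Stat5a, which carry the prolactin signal, had differences of 0.21 (SE 0.13, or 0.09 without parous tumour 2) and 0.27 (SE 0.21), and Stat5b one of -0.04 (SE 0.22). Esr1, the estrogen receptor, had 8.31, 9.21 and 9.52 in parous and 7.88, 7.85 and 9.05 in nulliparous tumours (difference 0.75, SE 0.43). Elf5, a transcription factor of alveolar cells that stands in the milk list, had a difference of 0.25 (SE 0.18), or 0.14 without parous tumour 2. The mean of the hormone list was 8.96, 9.08 and 9.11 in parous and 8.93, 8.88 and 8.99 in nulliparous tumours, which overlap.

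In the other parity comparisons of the series milk genes leaned the opposite way. In WT tumours with metastasis the median over the same 24 genes was -0.35, with 3 above 0, and in KO tumours with metastasis, 2 parous samples against 1 nulliparous, it was -0.92 with 1 above 0. The mean log2 of the list was 9.85 ± 0.53 (SD, n = 4) for the parous WT group and 10.49 ± 0.73 (SD, n = 4) for the nulliparous one. These WT groups overlapped, at 9.22 to 10.53 in parous and 9.60 to 11.38 in nulliparous tumours. The highest value was that of nulliparous WT replicate 1, and 0 milk genes passed the adjusted threshold in WT. The 6 KO tumours thus lay within the spread of WT values, which ran from 9.22 to 11.38. The difference of the contrasts, KO without metastasis minus WT with metastasis, had a median of 1.28 over the list, with 22 members above 0 (10942 of all 19938 genes) and 7 higher with an unadjusted p under 0.05 (5.75% of all genes). No milk gene passed in it: Plin2, which coats milk lipid droplets, had 1.45 (SE 0.40), Wap 3.26 (SE 1.02, or 2.29 without parous tumour 2) and Slc34a2, a phosphate transporter, 1.59 (SE 0.53). Genotype and metastasis status differ together between these contrasts and cannot be told apart.

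Oxidative phosphorylation genes were lower in parous tumours by a small amount. The 30 measured subunits had a median difference of -0.08, with 25 below 0 (9444 of all 19938 genes). In 4 the groups did not overlap (2.90% of all genes) and 2 had an unadjusted p under 0.05 (1.56% of all genes), all lower in parous tumours. The list mean was 11.23, 11.04 and 11.28 in parous and 11.29, 11.35 and 11.24 in nulliparous tumours, which overlap. Parous tumour 2 was the lowest of the 6 in 18 members, and without it the median was -0.03. Uqcrc1, a core subunit of complex III, had 11.18, 11.10 and 11.14 against 11.27, 11.40 and 11.30 (difference -0.18, SE 0.07). Sdhb of complex II had 10.03, 10.14 and 10.10 against 10.31, 10.24 and 10.56 (-0.28, SE 0.13), and Cox7a2 of complex IV -0.21 (SE 0.10), or -0.11 without parous tumour 2. The widest difference was that of Uqcrfs1, the Rieske protein of complex III, at -0.51 (SE 0.27), or -0.12 without parous tumour 2. It had 8.88 in parous tumour 2 against 9.86 to 10.36 in the other 5. Uqcrfs1, Uqcrb, Sdha and Ndufs4 lie on chromosome 13, whose genes were low in that tumour as described below. In WT tumours with metastasis the list leaned the other way, with a median of 0.10 and 25 of 30 members above 0. In KO tumours with metastasis, with 1 nulliparous sample, the median was 0.18 with 26 above 0. Sdhb went against its list in WT, where it was lower in parous tumours (-0.78, SE 0.11, adjusted p = 0.00735). Outside the list, Uqcr11, a small subunit of complex III, ran from 11.28 to 11.59 in parous tumours and lay at 11.80 or above in nulliparous tumours (-0.45, SE 0.11, adjusted p = 1).

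Lipid synthesis genes also leaned lower in parous tumours. Of 24 members 19 were below 0 with a median of -0.20, and 2 had groups that did not overlap (2.90% of all genes) and an unadjusted p under 0.05 (1.56%), both lower. Both belong to cholesterol synthesis. Hmgcs1, which makes its precursor HMG-CoA, had 9.86, 9.48 and 9.73 in parous and 10.28, 10.03 and 10.10 in nulliparous tumours (-0.44, SE 0.13). Dhcr7, which catalyses the last step, had 10.37, 10.28 and 10.52 against 10.93, 10.54 and 11.10 (-0.47, SE 0.15). The list mean was 10.72, 10.61 and 10.76 in parous and 10.91, 10.68 and 10.94 in nulliparous tumours, which overlap. Parous tumour 2 was the lowest of the 6 in 12 members. Hmgcs1 lies on chromosome 13, whose genes were low in that tumour as described below. The median was -0.11 without parous tumour 2 and -0.26 to -0.14 without any other tumour. In WT tumours the list also leaned lower, with a median of -0.26 and 17 of 24 members below 0.

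For several lists of other cells and signals, single tumours set the difference between the groups. The interferon list had a mean log2 of 8.75, 9.88 and 8.59 in parous and 9.11, 8.14 and 8.94 in nulliparous tumours. Parous tumour 2 was the highest in 23 of 27 interferon genes and nulliparous tumour 2 the lowest in 22, against 18.9% and 13.9% of all genes. The median difference of 0.29 was 0.00 without the first of these and -0.03 without the second. Ifit3, an antiviral protein, shows this, with 8.02, 11.40 and 8.63 against 8.77, 7.35 and 8.71. In the WT contrast, where 108 genes (0.542%) rose and 370 (1.86%) fell in parous tumours with adjusted p under 0.05, 18 of the 27 fell. That count of 478 genes ranged from 57 without nulliparous WT replicate 4 to 770 without parous KO tumour 2, and was 0 with the stromal list means as covariates.

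Macrophage markers followed the same tumours, with list means of 8.77, 9.90 and 8.78 in parous and 9.13, 8.52 and 9.11 in nulliparous tumours. The median difference was 0.22, and -0.17 without parous tumour 2. Lyz2, lysozyme of macrophages, had 11.39, 12.83 and 11.49 against 11.68, 11.11 and 11.91. Fibroblast and matrix genes were at 9.37, 10.59 and 9.32 in parous and at 10.04, 9.71 and 9.86 in nulliparous tumours. Parous tumours 1 and 3 therefore had lower and parous tumour 2 higher values than all 3 nulliparous tumours. The median of -0.12 was -0.51 without parous tumour 2, and 0.09 and 0.14 without parous tumours 1 and 3. The collagen gene Col1a1 had 10.09, 11.84 and 9.93 against 11.30, 10.60 and 10.51. Endothelial markers had 9.08 in parous tumour 2 and 8.28 to 8.66 elsewhere, and their median of 0.14 was -0.16 without that tumour. With adipocyte, fibroblast and macrophage list means as covariates the milk median was 0.33. Any part of vessels in the milk difference was not tested.

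Skeletal muscle genes were highest in parous tumour 3, at a list mean of 9.11, against 7.49 and 8.41 in parous tumours 1 and 2 and 7.41, 7.99 and 8.52 in nulliparous tumours. Of the 21 members 18 were highest there. The median difference of 0.37 was -0.01 without that tumour and 0.06 without nulliparous tumour 1. Tnni1, slow skeletal troponin I, was the only member without overlap (3.14% of all genes higher and 2.90% lower). It had 7.53, 7.62 and 7.52 against 7.15, 7.21 and 7.21 (difference 0.37, SE 0.12). Parous tumour 3 also held Pygm, muscle glycogen phosphorylase, and Apobec2, a muscle deaminase, among the 5 genes it had highest above the rest.

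Basal and myoepithelial markers had 4 of 16 members with no overlap, all higher in parous tumours (3.14% of all genes). Krt5 had 6.64, 7.99 and 6.56 against 6.31, 6.44 and 6.27 (difference 0.73, SE 0.27), and Krt14, its partner keratin, 6.93, 7.87 and 6.95 against 6.64, 6.90 and 6.77 (0.48, SE 0.19). Both were highest in parous tumour 2, without which the differences were 0.26 and 0.17. Itgb4, an integrin of the basement membrane contact, ran from 11.35 to 11.59 in parous and from 11.27 to 11.32 in nulliparous tumours (0.14, SE 0.07), and Myh11, smooth muscle myosin, did not overlap either (0.34, SE 0.18, or 0.21 without that tumour). The list mean was 8.37, 9.17 and 8.28 against 8.37, 8.29 and 8.40, and its median of 0.18 was -0.04 without parous tumour 2. Cell cycle genes had 23 of 25 members below 0 with a median of -0.13, but no member had an unadjusted p under 0.05 (3.29% of all genes). Their list means were 10.52, 10.14 and 9.88 in parous and 10.04, 10.57 and 10.29 in nulliparous tumours, so parous tumour 1 and nulliparous tumour 2 were the highest, and the median was 0.04 without the latter or without parous tumour 3. Skin keratinocyte markers had list means of 6.27, 6.45 and 6.15 in parous and 6.21, 6.25 and 6.19 in nulliparous tumours, again highest in parous tumour 2. The hypoxia and glycolysis list (median -0.04, or 0.02 without parous tumour 2) was highest in parous tumour 1, at a list mean of 11.42 against 10.67 to 11.11 in the other 5. Luminal markers (median 0.03), ERBB and MAPK genes (-0.13), epithelial-mesenchymal factors (0.08), antigen presentation (0.13), neutrophil (0.17), adipocyte (0.04), involution (0.12), stress (0.07), chemokine (0.05), ribosomal (0.00) and developmental signalling genes (0.05) all had list means that overlapped between the groups. Without parous tumour 2 the medians, in the same order, were 0.02, -0.09, -0.15, -0.04, 0.06, 0.06, 0.04, -0.03, 0.02, 0.00 and -0.08. T and NK cell markers were dim, with list means of 6.47, 6.38 and 6.37 in parous and 6.37, 6.32 and 6.34 in nulliparous tumours. They did not overlap, by a narrow margin, with a median difference of 0.07 over 22 members that was 0.00 with the adipocyte, fibroblast and macrophage list means as covariates. B and plasma cell markers were also dim (6.62 to 6.74) and overlapped.

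**Figure D2:**
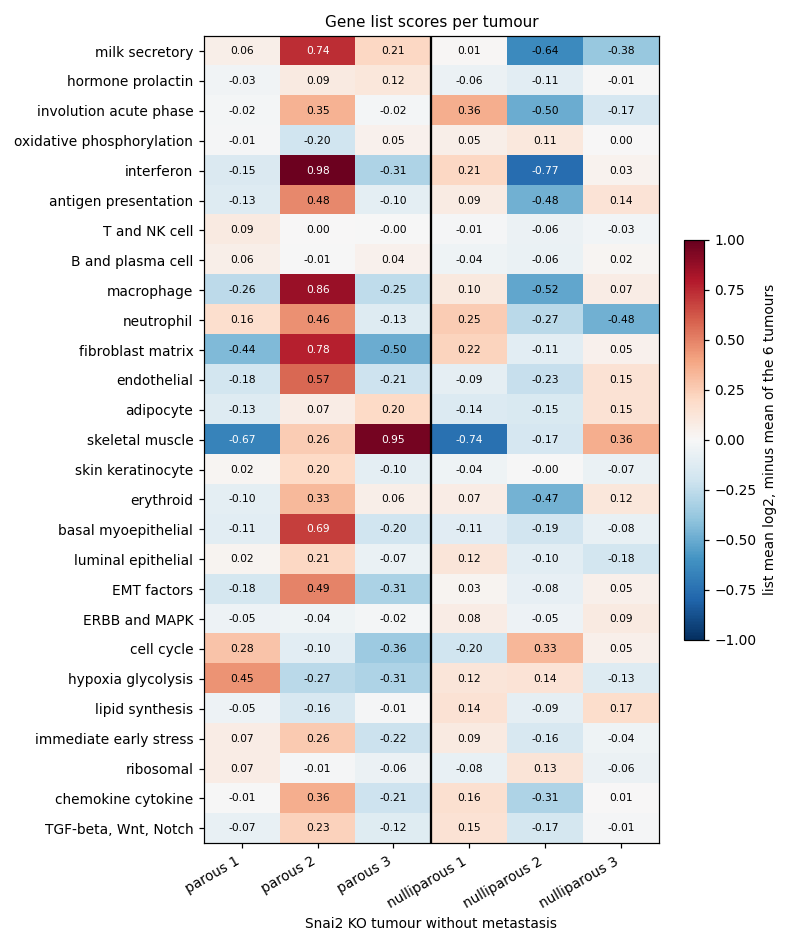
Mean log2 of each of 27 gene lists (rows) in each of the 6 KO tumours without metastasis (columns), as the deviation from the mean of the 6, red above and blue below it, with the black line between the cohorts. Parous tumour 2 has the deepest red for the interferon, macrophage and fibroblast lists, and the list mean of milk genes is 10.46 or more in the 3 parous tumours and 10.41 or less in the 3 nulliparous ones.

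**Figure D3:**
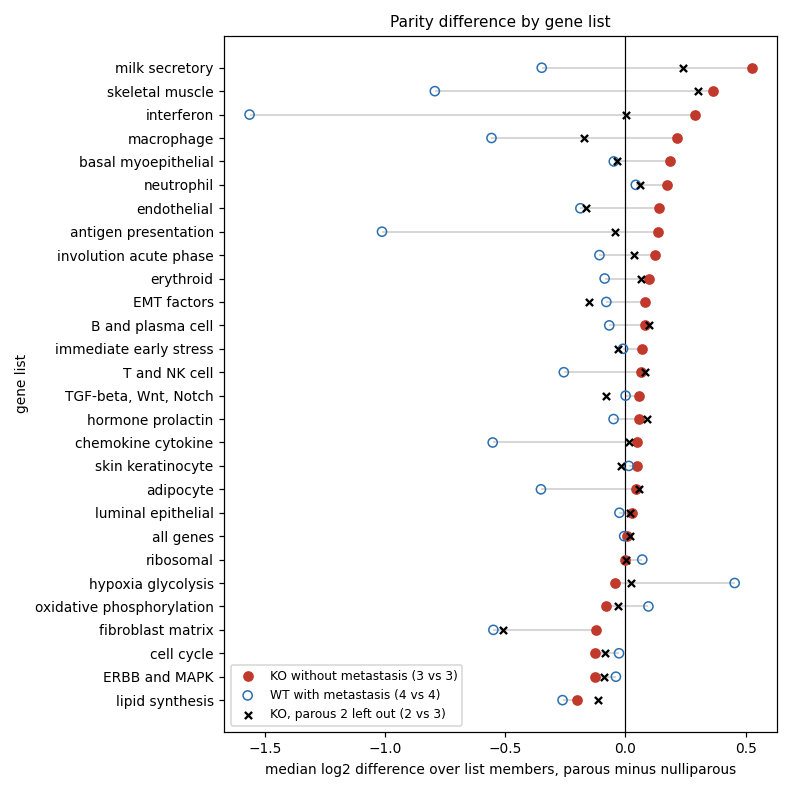
Median log2 difference over the members of each list, parous minus nulliparous (x axis), in KO tumours without metastasis (red), in the same without parous tumour 2 (crosses) and in WT tumours with metastasis (blue rings), with all genes for reference. The milk list has the highest KO median, 0.53, and stands at 0.24 without parous tumour 2, where the skeletal muscle list, at 0.30, is higher, and the interferon list goes from 0.29 to 0.00.

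The single genes with the smallest p are given next, first those with higher values in parous tumours. Trex2, a DNA exonuclease, had 7.06, 6.99 and 7.09 in parous and 6.82, 6.78 and 6.75 in nulliparous tumours (0.26, SE 0.05). Pde7a, a phosphodiesterase that breaks down cyclic AMP, had 10.52, 11.02 and 10.69 against 10.25, 9.96 and 9.67 (0.78, SE 0.19). Samd5 had the widest difference of the 8 with smallest p on this side (1.24, SE 0.31), but nulliparous tumour 2, at 8.38, lay above parous tumour 3, at 8.26. The other 5 were Olfr401, an olfactory receptor gene (0.42, SE 0.09), Nrgn, neurogranin (0.31, SE 0.08), Lrrk1, a kinase (0.27, SE 0.07), Abcg4, a lipid transporter (0.29, SE 0.08), and Plp2 (0.42, SE 0.11). None of the 8 passed, each with adjusted p = 1.

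On the lower side Pop5, a protein of ribonuclease P, had 8.99, 9.03 and 9.21 in parous tumours and 9.58, 9.54 and 9.57 in nulliparous tumours (-0.49, SE 0.11). Tmem223, a mitochondrial membrane protein that takes part in assembling complex IV, had the widest difference here, with 9.37, 10.43 and 8.88 against 12.12, 11.37 and 11.87 (-2.23, SE 0.53). Its 3 nearest tested neighbours on either side on chromosome 19 had differences of -0.21 to 0.20. Mrps10, a mitochondrial ribosomal protein, had 8.88, 9.23 and 9.33 against 9.83, 9.68 and 9.57 (-0.55, SE 0.14). Tsc2, tuberin, which restrains mTOR signalling, ran from 10.49 to 10.72 in parous and from 10.87 to 11.04 in nulliparous tumours (-0.32, SE 0.08). Plekhd1 (-0.66, SE 0.16), Tmem267 (-1.07, SE 0.27), Uqcr11 and Olfr171 (-0.24, SE 0.06) complete the 8, beside 1 predicted gene. Again none passed, each with adjusted p = 1.

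Genes whose groups did not overlap were also ranked by the size of the difference. Il18r1, a receptor chain for interleukin 18, had 9.86, 10.58 and 8.66 in parous and 7.01, 7.79 and 7.31 in nulliparous tumours (2.33, SE 0.74). Tgm1, the transglutaminase of cornified epithelium, had 9.92, 11.27 and 11.03 against 8.58, 8.78 and 9.70 (1.72, SE 0.52). Clca2, a chloride channel regulator, had 9.33, 11.66 and 10.62 against 8.35, 9.27 and 8.48 (1.83, SE 0.90), so that parous tumour 1 barely exceeded nulliparous tumour 2. Wap, Btn1a1 and Csn1s2b, given above, were also among the 8 widest. Arntl2, a clock transcription factor, and Krt19, a luminal keratin, owed their rank to parous tumour 2, at 10.06 and 9.69, while the other 5 tumours had 6.30 to 6.75 and 6.39 to 6.89.

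Among genes with lower values in parous tumours Ccl28, a mucosal chemokine that the lactating gland secretes, had 7.60, 6.71 and 8.34 against 11.75, 8.54 and 9.48 (-2.37, SE 0.84). Nulliparous tumour 1 was highest, and nulliparous tumour 2 lay only just above parous tumour 3. On chromosome 13 Tmem267, Ccl28 and Hmgcs1 are consecutive among tested genes, and in all 3 the parous tumours lay below the nulliparous ones. The next genes on either side overlapped between groups. Rgs2, a brake on G protein signals, had 8.65, 9.38 and 9.68 against 11.21, 10.62 and 10.06 (-1.40, SE 0.55), and Adcy8, an adenylate cyclase, 9.33, 7.08 and 9.22 against 10.23, 10.60 and 10.52 (-1.91, SE 0.89, or -1.18 without parous tumour 2). Dpyd, which breaks down pyrimidines (-1.27, SE 0.58), and Scarna13, a small RNA of Cajal bodies (-1.20, SE 0.45), also belonged to the 8. Gabra4, a GABA receptor subunit, entered through nulliparous tumour 2 alone, at 8.83 against 5.56 to 5.73 in the other 5.

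**Figure D4:**
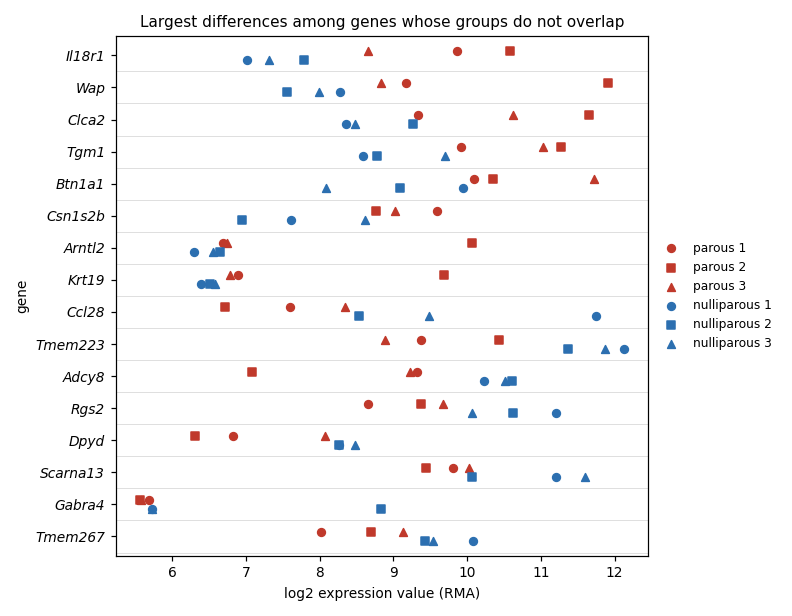
Log2 expression values (x axis) of the 16 named genes with the largest differences among those whose groups did not overlap (y axis), 8 higher and then 8 lower in parous tumours, with 1 point per tumour, red for parous and blue for nulliparous. The gap between the groups is wide for Il18r1, Tmem223 and Adcy8, and for Arntl2, Krt19 and Gabra4 a single tumour sets the difference.

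Leaving out 1 of the 6 tumours brought 4 genes past the threshold. Without parous tumour 1, Klk10, a secreted kallikrein protease, had a difference of 2.33 (SE 0.24, adjusted p = 0.00884) and Togaram1, a protein of cilia, 0.67 (SE 0.08, adjusted p = 0.0419). Klk10 was at 7.31 in that tumour, within the nulliparous 7.12 to 7.41, and at 10.20 and 9.01 in parous tumours 2 and 3. Without parous tumour 3, Cblb, a ubiquitin ligase that damps receptor signals, had 0.85 (SE 0.10, adjusted p = 0.0283), since it was at 10.07 and 10.13 in parous tumours 1 and 2 but at 9.26 in parous tumour 3. Without nulliparous tumour 2, Plekhd1 had -0.90 (SE 0.09, adjusted p = 0.0058). The 3 remaining ways of leaving out a tumour gave 0 genes, with 612 higher and 212 lower genes at an unadjusted p under 0.05 without parous tumour 2.

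Each tumour also had its own high and low genes. Parous tumour 2 had 244 genes at least 1 above, and 84 at least 1 below, all 5 other tumours. Ecrg4, a secreted peptide precursor, was at 12.48 there and at 7.02 to 7.34 elsewhere, Vmn2r96, a vomeronasal receptor gene, at 11.98 against at most 6.80, and Npy, neuropeptide Y, at 12.75 against at most 9.51. Nlrp9b stood 3.36 above the rest. The adaptor Dlgap1 (6.31 against at least 9.70), the claudin Cldn10 (7.83 against at least 10.98) and Sidt1 (7.66 against at least 10.55) were lower there than in any other. The epithelial lectin Lgals7 was at 11.09 in parous tumour 2 and at 7.41 to 7.99 in the other 5.

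The other 5 tumours had fewer such genes. Parous tumour 1 had 2 above and 6 below, led by St8sia1, a sialyltransferase of gangliosides (9.46 against at most 7.68), and the chemokine Ccl3 (9.69 against at most 8.05), with Galnt15, Trpv4 and Ciart under 1 above the rest and Pcdhb17, Pqlc3 and Pik3r3 lowest. Parous tumour 3 had 12 above and 3 below, with the protease-like Prss35 (10.73 against at most 7.90), Odam, an ameloblast protein, Apobec2, Btn1a1 and Pygm highest and the metallothionein Mt2 (9.57 against at least 10.88), Ak4 and the collagen Col6a3 lowest. Nulliparous tumour 1 had 38 above and 14 below, where prolactin-induced protein Pip (8.30 against at most 5.12), Chst9, the collagenase Mmp13 (11.54 against at most 9.20), Ccl28 and Eya4 were high and Apoc1, an apolipoprotein (7.76 against at least 11.11), Emb and Alkal2 were low. Nulliparous tumour 2 had 6 above and 9 below, with Gabra4, the amino acid transporter Slc38a1 (10.93 against at most 8.37), Slc22a8, Prol1 and Ndrg2 high and the MHC class II gene H2-Ea (6.95 against at least 10.22), D17H6S56E-5 and Clu low. Nulliparous tumour 3 had 28 above and 6 below, with the calcium sensor Vsnl1 (10.14 against at most 6.42), the noradrenaline transporter Slc6a2 (11.19 against at most 7.67), Ajap1, Efhd1 and Scrg1 high and the growth factor Pgf (7.90 against at least 10.27), Cyp2f2 and Ltf low.

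Whole chromosomes differed between the tumours as well. For the brightest 60% of genes, each value was set against the mean of that gene over the 17 samples, and the median of these deviations was taken per chromosome and tumour. On chromosome 13 parous tumour 2 was at -0.43, with 85.6% of 416 genes below 0, and the other 5 tumours were at 0.06 to 0.10. All 4 windows of about 100 consecutive genes on it lay between -0.49 and -0.34 in that tumour. On chromosome 12 parous tumour 3 was at 0.31, with 16.3% of 430 genes below 0 and windows from 0.21 to 0.40, against -0.04 to 0.05 in the other 5. On chromosome 4 parous tumour 2 was at 0.29 to 0.41 in the first 5 of 8 windows and at -0.17 to -0.11 in the last 3. Nulliparous tumour 3 was at 0.11 to 0.24 along all of chromosome 4, where the remaining 4 tumours were below 0. Chromosome 2 was at -0.17 in parous tumour 2, with all 10 windows below 0. Chromosome 4 was also at -0.17 in parous tumour 3, with 86.9% of 755 genes below 0. Nulliparous tumours had shifts of nearly this size too. Chromosome 10 was at -0.14 in nulliparous tumour 3, with 77.5% of 596 genes below 0. The X chromosome was at -0.14 in nulliparous tumour 2, with 70.5% of 329 genes below 0.

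**Figure D5:**
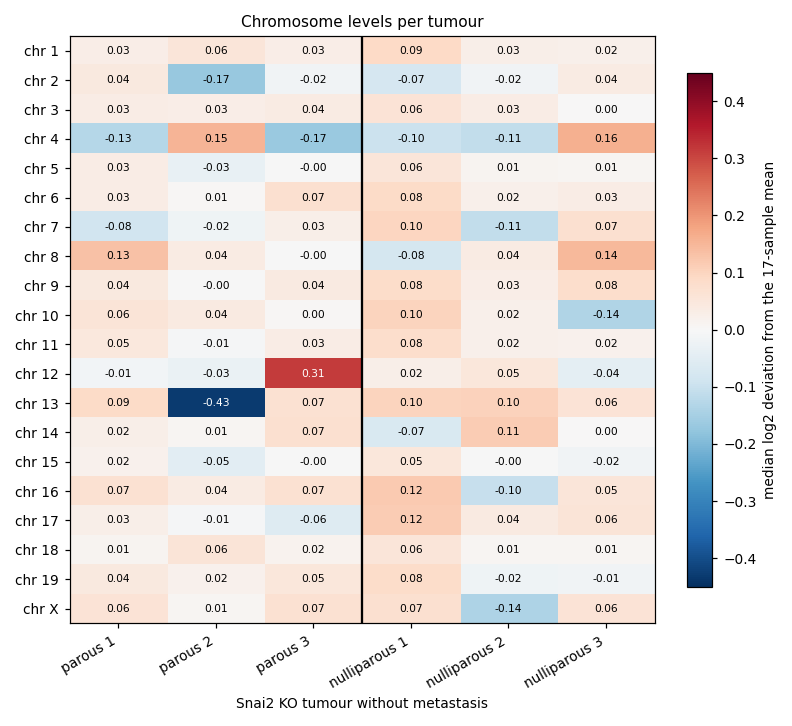
Median log2 deviation from the mean of 17 samples over the expressed genes of each chromosome (rows) in each of the 6 KO tumours without metastasis (columns), red above and blue below 0, with the black line between the cohorts. Chromosome 13 at -0.43 in parous tumour 2 and chromosome 12 at 0.31 in parous tumour 3 stand out, each in a single tumour.

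The chromosomes held unequal shares of the genes with small p. Of the 311 genes with an unadjusted p under 0.05 and lower values in parous tumours, 35 (11.3%) lay on chromosome 13, which holds 3.69% of placed genes, and parous tumour 2 was the lowest of the 6 in 32 of them. Without that tumour 8 of 212 such genes (3.77%) lay there. Chromosome 17 held more, 65 of the 311 (20.9%), with 4.72% of placed genes. Their differences ran from -0.55 to -0.17, with a median of -0.32, and in 41 of them the groups did not overlap. Parous tumour 2 was the lowest of the 6 in 41 of the 65, and without it chromosome 17 held 43 of 212 such genes (20.3%). Mrps10 and Tsc2 are among them. The shift of chromosome 17 as a whole was slight, at 0.03, -0.01 and -0.06 in parous and 0.12, 0.04 and 0.06 in nulliparous tumours. Of the 120 windows, 5 had nonoverlapping groups, all lower in parous tumours, and 3 of these were on chromosome 17 and 2 on chromosome 9. With 1 of the 6 tumours left out, chromosome 17 held 9.23% (without parous tumour 3) to 20.8% of the lower genes. These shares were noticed after the values were seen and have no test, since neighbouring genes of a tumour may not vary independently.

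The parity difference itself was compared between KO and WT as the difference of the 2 contrasts. No gene passed (0%, 0 genes, smallest adjusted p = 0.267), while 1146 genes (5.75%) with a higher and 776 (3.89%) with a lower parity difference in KO had an unadjusted p under 0.05. The genes with the smallest p on the higher side were Ogfr, Brpf1, Slfn1 and Kdm1a. Ogfr and Kdm1a had KO differences near 0, of 0.05 (SE 0.11) and -0.05 (SE 0.10). In WT they had -0.83 (SE 0.09) and -0.82 (SE 0.09). Brpf1, a chromatin reader, had a KO difference of 0.21 (SE 0.07) with no overlap, against -0.31 (SE 0.06) in WT. Slfn1, a gene of the Schlafen family, had 0.30 (SE 0.15) in KO and -0.87 (SE 0.13) in WT. On the lower side Pglyrp1, an innate immune protein, had -0.12 (SE 0.49) in KO against 3.38 (SE 0.43) in WT, and Zfr and Hs3st3b1 likewise had KO differences near 0, of -0.12 and -0.08. Pisd-ps2, a pseudogene on chromosome 17, had -0.46 (SE 0.12) in KO with no overlap and 0.37 (SE 0.11) in WT. Of the 27 interferon genes 26 had an unadjusted p under 0.05 in the difference, with KO differences of -0.21 to 1.07. For the genes of largest KO difference the WT values were 1.55 (SE 0.64) for Il18r1, -0.40 (SE 0.46) for Tmem223 and 1.30 (SE 0.73) for Ccl28, so Ccl28 had the opposite sign in WT. Rgs2 (1.53, SE 0.47) and Adcy8 (1.81, SE 0.77) did so too, and their differences of the contrasts were -2.93 (SE 0.72) and -3.71 (SE 1.18).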

How the data were processed

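Log2 expression values of 35556 probe sets on 18 Affymetrix arrays were used as deposited by the authors. RNA was extracted with Trizol per the labels' protocols. The submitters' processing notes name RMA and oligo, and their versions were not stated in those notes. RMA compresses dim values, so differences of dim genes may be understated. Arrays have no read depth, and their number limits the precision. Scanner files and scan batches were not analysed here.

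Probe sets with 1 gene in the platform annotation (21789) were kept, the brightest per gene, which left 19938 genes, of which 19855 matched RefSeq. A pair of arrays of the KO parous group with metastasis, replicates 2 and 3, was nearly identical (SD of difference 0.102, next closest pair 0.283) and was averaged, giving 17 samples.

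Means of the 6 groups were fitted with limma 3.58.1 in R 4.3.3 (lmFit, eBayes, two-sided, Benjamini-Hochberg over 19938 genes, threshold 0.05) after the script was tested on simulated data. An exact permutation test of 3 against 3 samples cannot go below 0.1 and was not used. The 27 lists (538 of 591 entries matched) are described by counts and medians with no test. The tumours, lists and rules were chosen with earlier results of these data known. Named genes are Snai2, Erbb2, the 8 smallest p per direction, the 8 largest differences per direction among genes without overlap, list members by p, per tumour the 5 genes highest above and 3 lowest below the others, genes passing with a tumour left out, and 4 genes per direction for the difference of contrasts. Predicted genes were counted only. Further list members, the chromosomes and the neighbouring genes were chosen after their values were seen. Chromosome windows held 93 to 110 genes.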

Additional observations from a re-analysis of the deposited data

Results flagged for a closer look

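In the WT comparison groups, samples standing apart from the other 3 of their group were looked for in 36 sets of 4 values by the gap to the nearest of the others over the range (Dixon's test), of which chance would mark about 1 in 20. The oxidative phosphorylation score of nulliparous WT replicate 3 was high, at 11.22 against 11.12 to 11.13. The skeletal muscle score of parous WT replicate 2 was high, at 8.04 against 7.04 to 7.15. The hypoxia and glycolysis score of nulliparous WT replicate 2 was high, at 11.73 against 10.58 to 10.61. The groups of 3 KO tumours were not tested this way.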

How the results depend on the processing

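No KO gene passed under any of the 9 alternatives that changed the method, and leaving out 1 sample gave 0 to 2 genes. For the difference of the contrasts, leaving out 1 sample gave 0 to 8. Unadjusted p under 0.05 was reached by 127 to 696 higher and 173 to 689 lower KO genes over all alternatives. The 127 were of the 11963 genes kept without the dimmest 40%, and the other alternatives had 19938 genes. The 6 tumours alone gave 160 higher and 181 lower. The 478 WT genes became 878 with the tumours of the contrast alone, 1718 with array weights, 0 with adipocyte, fibroblast and macrophage list means as covariates, and 57 to 770 with 1 sample left out. The counts moved by over 1.5 times without parous KO tumour 2, nulliparous WT replicate 1 or 4, or any parous WT replicate. The cause was not tested.

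With the replicate number as a replicate block, 0 KO genes passed (130 higher and 173 lower at an unadjusted p under 0.05) and 239 WT genes. Deviations of same-numbered tumours from their group means correlated at -0.31 to -0.06 in KO and -0.14 to 0.07 in WT. For tumours of different number the range was -0.20 to 0.51 in KO and -0.36 to 0.45 in WT. Same-numbered pairs are few, and whether they share more than a number was not tested.

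Of 1805 values for 70 single genes, 1786 kept their side, 6 moved past the threshold and 13 changed sign. Snai2 turned to 0.0138 with the covariates and ran from -0.2071 to 0.0226 with 1 sample left out, and Erbb2 to 0.0482 with array weights and from -0.0889 to 0.0539. With array weights Oasl1 had -0.0194, Itgam -0.0195 and Tyrobp -0.0375, against 0.3713, 0.3375 and 0.3614 in the main fit. With 1 sample left out Itgam ran from -0.0617 to 0.5877, Tyrobp from -0.1603 to 0.6264 and Tnnt1 from -0.0112 to 0.2748. The milk median stayed between 0.2391 and 0.7241. Of 701 list medians 4 moved by more than the pooled SD of the list mean within groups. With the covariates the T and NK cell median moved to 0.0011 and the B and plasma cell median to 0.0396. The latter also moved to -0.0310 without the dimmest 40% of genes and 0.0109 without parous tumour 1. That limit is wide where tumours of a group differ. Within it, with 1 sample left out, the interferon median ran from -0.0295 to 0.5334. The macrophage median ran from -0.172 to 0.4106 and the fibroblast median from -0.5082 to 0.1403.

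Chromosome levels grew with brightness. With all genes, chromosome 13 in parous tumour 2 was at -0.1697, chromosome 12 in parous tumour 3 at 0.1483, and chromosomes 4 and 2 in parous tumour 2 at 0.00019 and -0.0867. With the brightest 30% of genes the first, second and last of these were at -0.4688, 0.3693 and -0.2275. Against the mean of the 6 tumours chromosome 12 was at 0.2453.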
